A study of Mus musculus with 8 samples.

Results

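Gene expression was compared between untreated cells of mice carrying a kinase-inactive IRAK4 knock-in (KI) and untreated cells of wild type (WT) mice, with 2 arrays in each group. The comparison covered every probe that stood above the array noise on at least 2 of these 4 arrays, which was 11275 of the 24613 probes in the table, for 8424 genes. All samples were from female mice of strain 129/BL6 and were labelled as bone marrow derived macrophages grown for 5 days in medium conditioned by L929 cells. The series also holds 2 KI and 2 WT arrays of cells given 100 µg/ml acetylated LDL (acLDL), a chemically altered lipoprotein that scavenger receptors take in, for 24 hours, so that 4 of the 8 arrays were untreated. RNA was labelled with biotin and hybridised to Illumina mouse bead arrays. Nothing in the labels says whether the 2 arrays of a group came from separate mice or cultures, so each p-value reflects only how far these arrays vary, which may be technical.

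IRAK4 is a protein kinase that binds the adaptor MyD88 when a Toll-like receptor or a receptor of the IL-1 family is engaged. It then acts on IRAK1 and IRAK2, and the signal passes through TRAF6 and the kinase TAK1 to NF-kB and the MAP kinases, which switch on cytokine and chemokine genes. A kinase-inactive knock-in leaves the protein in the cell without its enzymatic activity. The untreated comparison therefore asks what differs between the genotypes before any lipoprotein is added.

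Before the results, 3 properties of the arrays need to be stated. No probe was annotated to Irak4 (0 probes), so the genotype labels could not be checked on the targeted gene. Markers of the labelled cell type were present in part: 12 of 19 macrophage markers with a probe were above noise on all 4 untreated arrays and 7, Adgre4, Cd163, Cybb, Fcgr1, Itgam, Ms4a7 and Msr1, on none. Markers of other cell types were present too: 17 of 19 markers of alveolar type II cells, 10 of 11 of alveolar type I cells, 12 of 15 of airway club and secretory cells and 25 of 29 of endothelium were above noise on all 4. Over the 4 untreated arrays, the median log2 intensity of the measured macrophage markers was 8.32 to 8.91. It was 11.76 to 12.16 for alveolar type II and 12.5 to 12.8 for type I cells. For club and secretory cells it was 11.04 to 12.32, and for endothelium 11.53 to 11.76. The groups are therefore named below as the labels name them, and in RNA from a mixture fewer cells of a type and less RNA per cell cannot be told apart. Array 1 of the untreated KI group correlated more closely with array 1 of the acLDL KI group (r = 0.9913 across probes) than with its own replicate (r = 0.9852), and array 2 of the untreated WT group was closest to array 1 of the acLDL WT group (r = 0.9853, against 0.985 with its own replicate).

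Of the 11275 probes, 10125 were above noise on all 4 arrays, 616 on 3 and 534 on 2, and these last had a median log2 intensity of 6.33, while the 709 probes left out because they were above noise on 1 array had a median of 6.19. Across all probes the genotypes lay close together. The log2 difference, KI minus WT, had a median of 0.0028 with quartiles at -0.15 and 0.15, and 93.5% of probes differed by less than 0.5. A difference of at least 1 was reached by 43 probes in the higher direction (0.381%) and 42 in the lower (0.373%). With limma and Benjamini-Hochberg adjustment over the 11275 probes, 0 probes were higher (0% of those tested) and 1 was lower (0.00887%) at an adjusted p under 0.05. At an unadjusted p under 0.05, 866 probes were higher (7.68%) and 944 were lower (8.37%), 16.1% in all, where 564 in all would fall under that limit if no probe differed. The KI and WT arrays did not overlap for 2857 probes in the higher direction (25.3%) and for 2827 in the lower (25.1%).

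**Figure D1:**
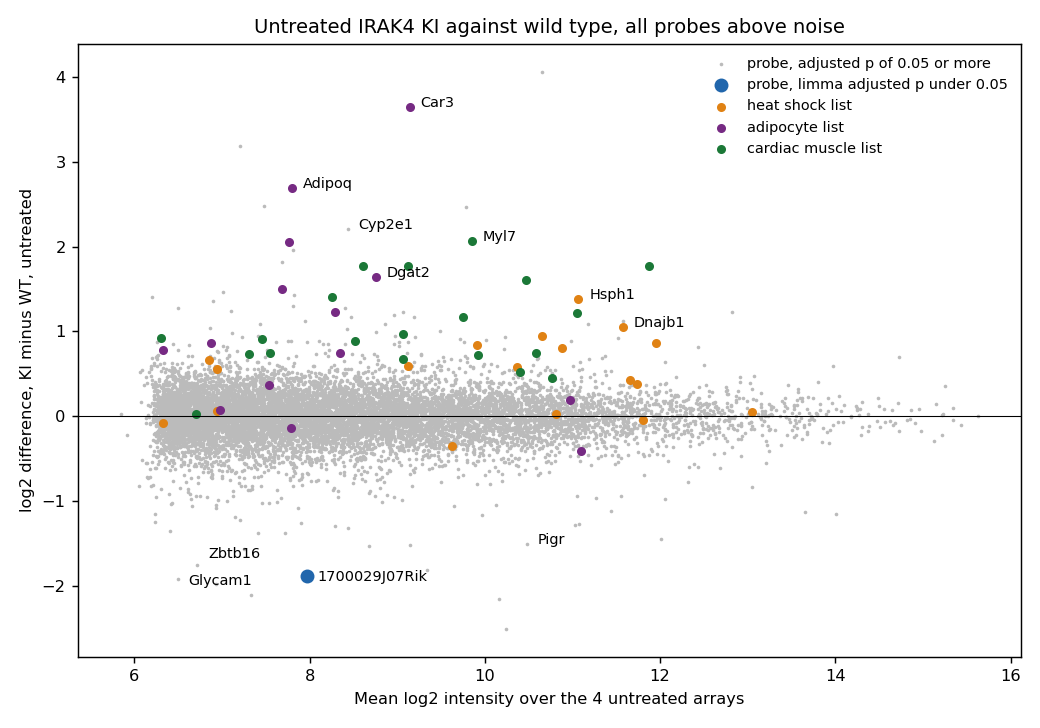
Each point is 1 of 11275 probes, with the mean log2 intensity over the 4 untreated arrays on the horizontal axis and the log2 difference, KI minus WT, on the vertical axis. The large blue point, 1700029J07Rik at -1.88, is the 1 probe with a limma adjusted p under 0.05. Genes of the adipocyte, cardiac muscle and heat shock lists are coloured, and most of them lie above 0.

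The called probe was that of 1700029J07Rik, a gene of chromosome 8. Its log2 intensity was 7.16 and 6.89 on the KI arrays, against 8.91 and 8.90 on the WT arrays. Both KI arrays were below both WT arrays, and the WT arrays were almost equal. The gene fell by 1.88 on the log2 scale (SE 0.16, a 3.69-fold lower level in KI, limma adjusted p = 0.0264). In the acLDL arrays it read 8.20 and 7.85 in KI, against 8.30 and 8.57 in WT, a difference of -0.41 that did not pass the test. The call was held in 10 of 20 alternative settings. Leaving out untreated KI array 2, either untreated WT array or either acLDL WT array ended it. With any 1 array left out the difference stayed between -2.02 and -1.75.

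Cep131, which encodes a protein of the centrosome and ciliary base, had the next smallest p among lower probes with a gene symbol. It read 7.01 and 6.87 on the KI arrays, against 7.90 and 8.03 on the WT arrays. The difference was -1.02 (SE 0.12, limma adjusted p = 0.104), which missed the threshold. The acLDL arrays gave -0.66 for the same gene.

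The other genes at the lower end that were above noise on all 4 arrays were of several kinds, and none of those named here passed the test after adjustment. Pigr, the receptor that carries immunoglobulins across epithelia, read 10.11 and 9.33 in KI, against 10.98 and 11.49 in WT (difference -1.51). Kcnj15, a potassium channel, read 8.30 and 7.53 in KI, against 9.34 and 9.56 in WT (difference -1.53). Clec7a, the beta-glucan receptor dectin-1, read 9.38 and 8.86 in KI, against 10.34 and 10.01 in WT (difference -1.06). The rule that picked these genes required the KI and WT arrays not to overlap, so their separation is not a finding. Il4i1, an amino acid oxidase, was at -1.01, and Krt79, a keratin, at -0.96. Tnnt1, the slow skeletal troponin T, was at -1.03, Gatad2a, a subunit of the NuRD complex, at -1.01, Ski, a corepressor of TGF-beta signalling, at -0.99, and Cpd, a carboxypeptidase, at -0.94. Nfic stood at -1.17 by its brighter probe and at 0.05 by its other probe, so its probes differ in direction, and Crybg3 stood at -1.08 and -0.04.

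Some genes were above noise in the WT arrays and in neither KI array. Glycam1, a mucin that carries ligands for L-selectin, was not above noise in KI and read 8.07 and 6.84 in WT, so it was at least 2.18-fold lower in KI (limma adjusted p = 0.168). Zbtb16, a zinc finger transcription factor, read 8.11 and 7.09 in WT and was at least 2.40-fold lower in KI (adjusted p = 0.168). For these bounds the KI level on each array was the lowest signal above noise, or the probe's own value where that was higher. Counted over all probes, 117 were above noise on both WT arrays and neither KI array, and 120 showed the reverse. Zbtb16 was also not above noise in KI after acLDL, with 6.85 and 7.36 in WT, while Glycam1 was low in all 4 acLDL arrays, at 5.80 and 5.79 in KI and 5.73 and 5.64 in WT.

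**Figure D2:**
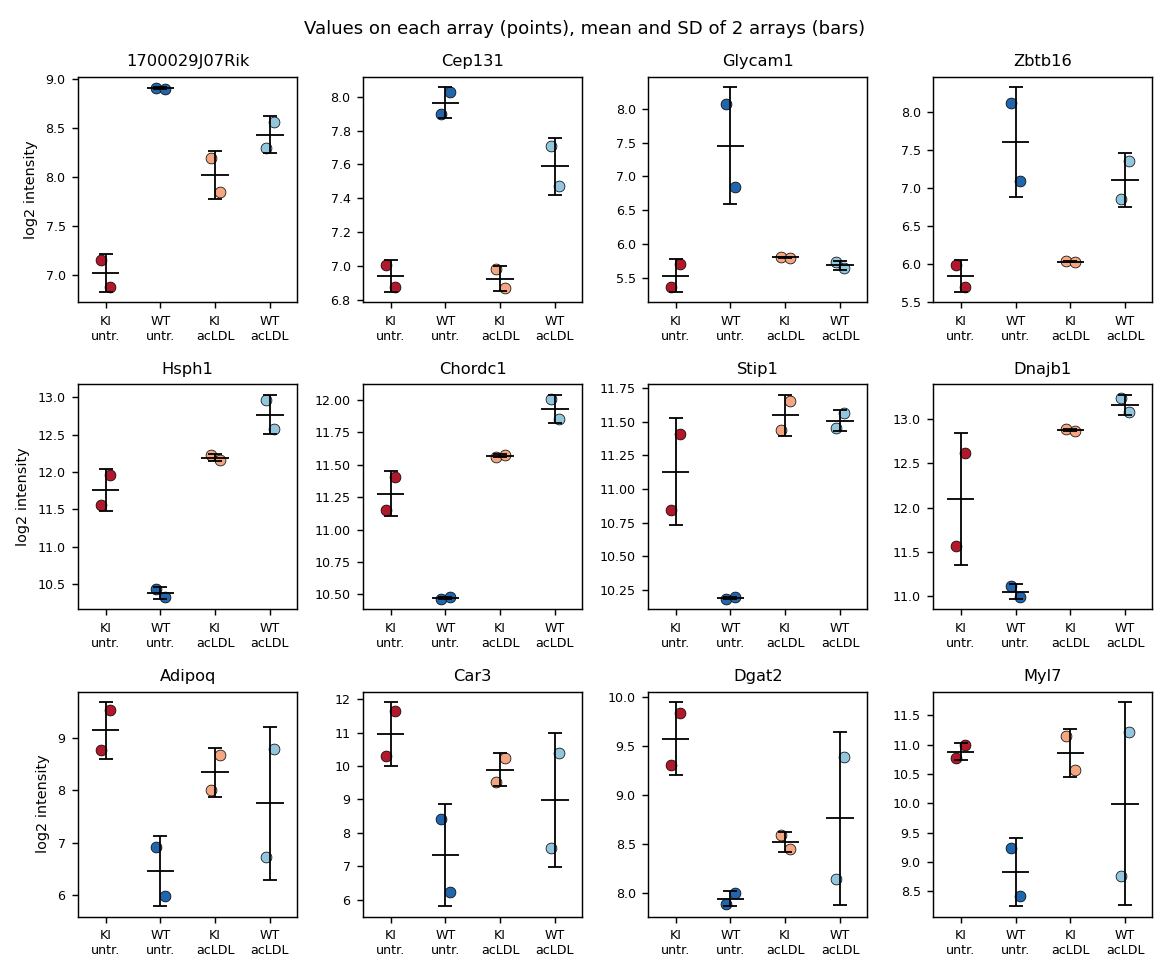
Log2 intensity of 12 genes on each array (points), with the mean and SD of the 2 arrays of a group (bars), for KI and WT without acLDL and for KI and WT with acLDL. The untreated WT arrays are the lowest group for Hsph1, Chordc1, Stip1 and Dnajb1, while the WT acLDL arrays lie far apart for Adipoq, Car3, Dgat2 and Myl7.

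Heat shock chaperones and co-chaperones, which hold unfolded proteins and help them refold, were the list with the most genes at a small p. Of 26 genes, 20 had a probe and 18 were measured. Of these, 15 were higher and 3 lower in KI, where 48.1% of all genes were higher and 51.9% lower. The median difference was 0.56, against -0.01 over all 8424 genes. At an unadjusted p under 0.05 there were 11 higher genes and 0 lower, which is 61.1% of the list against 6.2% of all genes, and none passed after adjustment (smallest limma adjusted p 0.104), where 1 gene of all was lower (0.0119%). Without KI array 2, 7 genes were under that limit and the median was 0.35.

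Hsph1, the large HSP110 chaperone, read 11.56 and 11.96 on the KI arrays, against 10.44 and 10.32 on the WT arrays. The groups were well apart, and the difference was 1.38 (SE 0.17, a 2.60-fold level in KI, limma adjusted p = 0.104). Chordc1, an HSP90 partner, read 11.15 and 11.40 in KI, against 10.47 and 10.48 in WT (difference 0.80, SE 0.12, limma adjusted p = 0.168). Ahsa1, which activates the ATPase of HSP90, read 10.17 and 10.49 in KI, against 9.37 and 9.61 in WT (difference 0.84). Stip1, which links HSP70 to HSP90, read 10.85 and 11.41 in KI, against 10.18 and 10.19 in WT (difference 0.94). The KI arrays were above the WT arrays in all 4 of these genes. The rule that picked Hsph1 and Stip1 required this of them, and Chordc1 and Ahsa1 were picked for a small p in the list. In all 4 genes KI array 2 was the higher of the KI pair.

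Dnajb1, an HSP40 co-chaperone, showed the spread between the KI arrays most clearly. It read 11.57 and 12.62 in KI, against 11.11 and 10.99 in WT, a difference of 1.05 (SE 0.28, limma adjusted p = 0.187). Without KI array 1 the difference was 1.57 with an adjusted p of 0.0413, and without KI array 2 it was 0.52 with an adjusted p of 0.586. The small heat shock protein Hspb1 had the same shape, at 11.89 and 12.87 in KI and 11.57 and 11.47 in WT. Hspd1, the mitochondrial HSP60, read 10.46 and 10.85 in KI, against 10.04 and 10.12 in WT (difference 0.57), and its dimmer probe read 8.13 and 8.78 in KI, against 7.18 and 7.14 in WT (difference 1.30, limma adjusted p = 0.168). Cryab, Hspa2 and Hspb8, which are chaperones too, differed by 0.04, 0.02 and -0.04.

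The same genes gave another picture in the acLDL arrays. The median difference of the list there was -0.10, with 5 genes higher and 13 lower in KI. Hsph1 read 12.22 and 12.16 in KI with acLDL, against 12.96 and 12.58 in WT with acLDL, so that all 4 acLDL arrays stood above all 4 untreated arrays. The difference between the untreated and the acLDL genotype effect was called for 3 probes of 11275 (0.0266%), 1 higher (0.00887%) and 2 lower (0.0177%), none of them in this list.

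Heat shock genes are switched on by the factor HSF1, which binds repeats of the letters GAA and TTC in alternating orientation. The promoters of 3 heat shock genes with a match and that of 1700029J07Rik are printed because they show how such repeats lie beside genes at both ends of the comparison. Each is the 250 bases before a start site in RefSeq, build GRCm38.p6, 5′ to 3′ on the strand of the gene, and capitals mark GAANNTTC or TTCNNGAA, each of which reads the same on both strands and may overlap the other. They lie at chr5:149636316-149636565 (minus strand, Hsph1), chr5:135887669-135887918 (plus strand, Hspb1), chr1:55087933-55088182 (minus strand, Hspd1) and chr8:45975253-45975502 (minus strand, 1700029J07Rik). Both starts listed for Hsph1 hold 1 match each and 1 of them is shown, and of the 2 starts of Hspd1 the one with matches is shown.
Hsph1: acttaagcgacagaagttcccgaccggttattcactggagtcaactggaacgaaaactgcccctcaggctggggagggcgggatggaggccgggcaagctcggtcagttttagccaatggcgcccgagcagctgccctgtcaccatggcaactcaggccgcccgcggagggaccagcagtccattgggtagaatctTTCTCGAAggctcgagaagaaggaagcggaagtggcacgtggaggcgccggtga
Hspb1: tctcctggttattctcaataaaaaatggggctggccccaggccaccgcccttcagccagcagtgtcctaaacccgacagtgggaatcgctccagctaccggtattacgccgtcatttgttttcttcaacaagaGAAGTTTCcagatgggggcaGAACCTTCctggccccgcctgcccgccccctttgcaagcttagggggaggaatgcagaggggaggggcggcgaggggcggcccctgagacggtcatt
Hspd1: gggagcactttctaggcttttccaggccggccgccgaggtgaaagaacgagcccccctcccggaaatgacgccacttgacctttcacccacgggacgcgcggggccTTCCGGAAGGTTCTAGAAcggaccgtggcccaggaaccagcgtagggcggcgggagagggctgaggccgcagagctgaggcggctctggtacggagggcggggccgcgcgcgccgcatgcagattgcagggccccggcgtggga
1700029J07Rik: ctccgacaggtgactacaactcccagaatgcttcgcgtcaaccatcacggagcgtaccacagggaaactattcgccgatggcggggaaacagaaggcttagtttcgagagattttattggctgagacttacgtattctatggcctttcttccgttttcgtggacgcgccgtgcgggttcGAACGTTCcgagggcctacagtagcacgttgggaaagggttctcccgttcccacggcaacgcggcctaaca

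At least 1 of these motifs was found in 12.8% of all 32851 promoters and in 10.4% of the 8750 promoters of the genes measured here. Among the 22 promoters of measured heat shock genes, 7 held one (31.8%). Counted by gene, with a match at any start, the shares were 14.5% of all 27025 genes and 12.5% of the 6827 measured. Of the 17 measured heat shock genes with a promoter in the table, 6 held one (35.3%). Of the 11 with an unadjusted p under 0.05, 5 held one, namely Hsph1, Hspd1, Dnaja4, Hspb1 and Fkbp4, and for Chordc1, Ahsa1, Ahsa2, Stip1, Dnajb1 and Bag3 these letters are not in the window. The motif was thus present beside higher genes and beside 1700029J07Rik, which was lower. A match is a description of the letters only.

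Adipocyte genes were higher in the KI arrays without acLDL. Of 14 measured, 12 were higher and 2 lower, with a median of 0.82, and 9 were non-overlapping in the higher direction (64.3%, against 23.4% of all genes). At an unadjusted p under 0.05 there were 6 higher genes (42.9%, against 6.2% of all genes) and 0 lower (0%, against 8.86%). None passed after adjustment. Leaving out 1 array at a time gave medians of 0.58 to 1.22. The median was 0.37 over the 9 genes above noise on all 4 arrays, 0.33 over 24 genes with no filter and 1.43 without background correction. Adipoq, the hormone adiponectin, read 8.76 and 9.53 in KI, against 6.92 and 5.98 in WT (difference 2.69, SE 0.63, limma adjusted p = 0.178). Car3, a carbonic anhydrase abundant in fat and muscle, read 10.29 and 11.64 in KI, against 8.40 and 6.24 in WT (difference 3.64, SE 0.97, limma adjusted p = 0.184). Both genes, which were picked for a small p in the list, were higher on each KI array than on each WT array. The WT arrays were themselves far apart. WT array 2 was not above noise for either gene, and without it the differences were 2.22 for Adipoq and 2.56 for Car3.

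Dgat2, which makes the last step of triglyceride synthesis, had closer replicates, at 9.31 and 9.84 in KI and 7.88 and 7.99 in WT (difference 1.64, SE 0.35, limma adjusted p = 0.178). Thrsp, a regulator of lipogenesis, read 7.99 and 9.19 in KI, against 6.94 and 6.61 in WT (difference 1.81). Cyp2e1, a cytochrome P450, read 8.55 and 10.53 in KI, against 7.35 and 7.30 in WT (difference 2.21, and 1.23 to 3.20 with 1 array left out). All 3 were non-overlapping, which a rule that picked them required, so their separation is not a finding. Pparg, the master regulator of fat cell differentiation, and Lpl, the lipoprotein lipase, did not share the direction, at -0.14 and -0.41. With 1 array left out Pparg ranged from -0.32 to 0.04, so its direction was not stable. Of the 24 adipocyte genes with a probe, 9 were above noise on none of the 4 arrays, among them Fabp4, Plin1 and Retn. In the acLDL arrays the median difference of the adipocyte list was 0.08, with 10 genes higher and 4 lower in KI.

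Enzymes and regulators of fatty acid and triglyceride synthesis gave 18 higher and 4 lower of 22, with 6 higher (27.3%, against 6.2% of all genes) and 0 lower at an unadjusted p under 0.05. The median was 0.13, and 0.20 without WT array 1. The count was 2 without WT array 2, 2 without KI array 2 and 4 without either of the other arrays. Agpat2, an acyltransferase of the same pathway as Dgat2, differed by 0.88, Gpd1 by 0.54 and Acaca, acetyl-CoA carboxylase, by 0.36. Scd1, the stearoyl-CoA desaturase, differed by 0.01.

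Cardiac muscle genes were higher in KI for all 20 measured (median 0.92), and 13 were non-overlapping (65%, against 23.4% of all genes). At an unadjusted p under 0.05 there were 3 higher genes (15%, against 6.2% of all genes) and 0 lower. The count was 0 without WT array 2, 0 without KI array 2, 5 without WT array 1, 10 without either WT acLDL array, and 13 in a fit of the 4 untreated arrays alone. The median was 0.49 without WT array 2. Myl7, the atrial myosin light chain, read 10.78 and 10.99 in KI, against 9.23 and 8.41 in WT (difference 2.06, SE 0.67, limma adjusted p = 0.215). Actc1, cardiac actin, read 11.26 and 11.28 in KI, against 9.57 and 9.76 in WT (difference 1.61). These genes also varied within a group that was not part of the comparison: Myl7 read 8.76 on WT acLDL array 1 and 11.22 on WT acLDL array 2.

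Muscle and fat levels moved between single arrays. The summed intensity of the cardiac list was 24026 and 34152 on the KI arrays, against 16151 and 9519 on the WT arrays. That of the adipocyte list was 8040 and 12537 in KI, against 6727 and 5977 in WT. Fast skeletal muscle genes split the replicates instead of the genotypes, with 1996 and 22752 in KI and 19585 and 1419 in WT. Of these genes, 0 of 15 were non-overlapping, against 23.4% of all genes in the higher direction and 26.7% in the lower. The part of tissue composition in the adipocyte and cardiac differences was not tested.

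**Figure D3:**
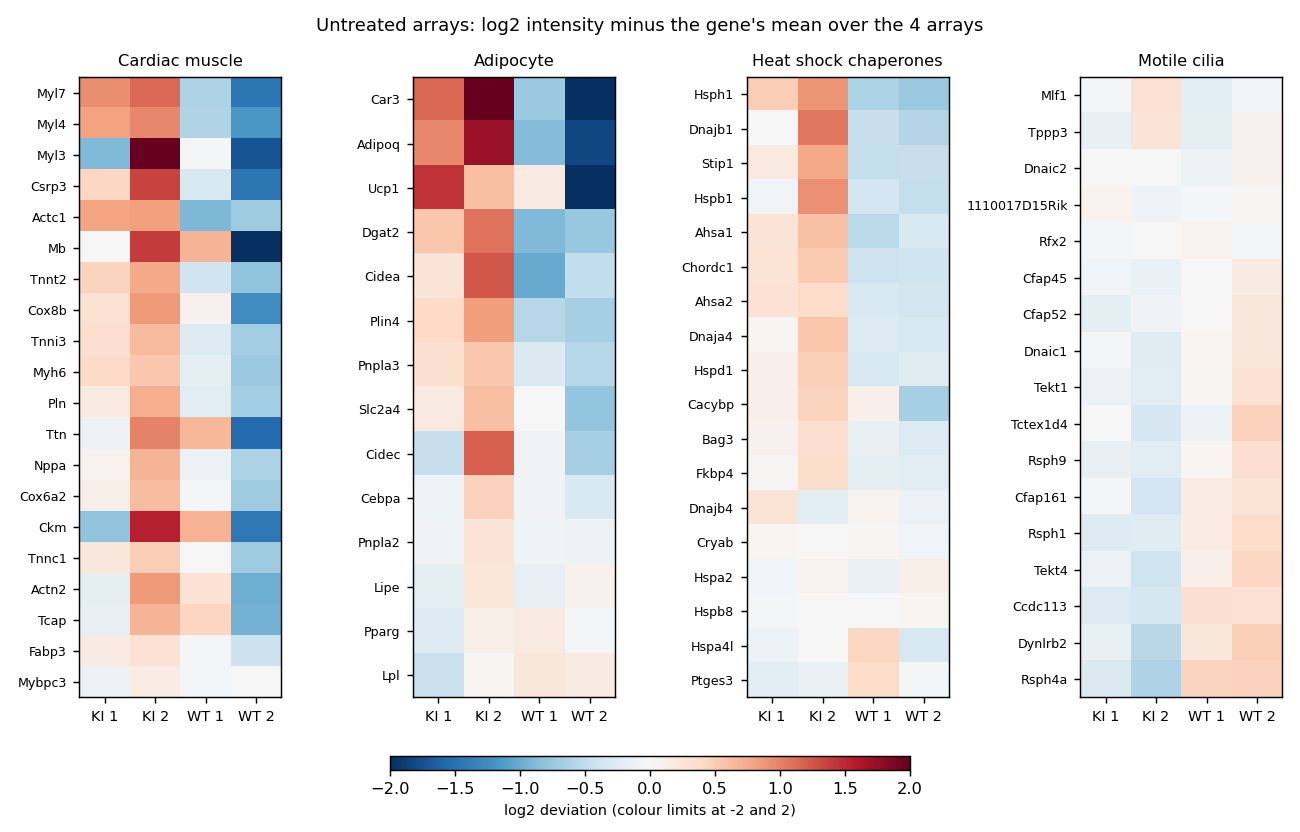
Log2 intensity on the 4 untreated arrays minus the gene's mean over them, for the measured genes of 4 lists, with KI arrays left of WT arrays. Cardiac and adipocyte genes are high on KI array 2 and low on WT array 2, most heat shock genes are highest on KI array 2, with KI array 1 between it and the WT arrays, and most motile cilia genes are lower in KI.

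Fibroblast and matrix genes were higher for 19 and lower for 3 of 22, with 6 higher (27.3%, against 6.2% of all genes) and 0 lower at an unadjusted p under 0.05 and a median of 0.26. The count in either direction was 3 without KI array 2 and 10 without WT array 2, and the median was 0.45 without WT array 2 and 0.10 without WT array 1. Serpinh1, the collagen chaperone HSP47, read 12.76 and 12.93 in KI, against 12.04 and 12.01 in WT (difference 0.82, SE 0.14, limma adjusted p = 0.168). Mfap5, a microfibril protein, differed by 0.88 without acLDL and by 0.88 with it. P4ha1, a collagen prolyl hydroxylase, differed by 0.73, and Col1a1 by 0.69.

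Motile cilia genes were lower in KI. Of 17 measured, 3 were higher and 14 lower (median -0.33), 11 were non-overlapping in the lower direction (64.7%, against 26.7% of all genes), and 7 were lower and 0 higher at an unadjusted p under 0.05 (41.2%, against 8.86% of all genes). None passed after adjustment. Rsph4a, a radial spoke protein, read 8.39 and 8.07 in KI, against 9.12 and 9.14 in WT (difference -0.90, SE 0.24, limma adjusted p = 0.184). Ccdc113 read 8.54 and 8.45 in KI, against 9.13 and 9.12 in WT (difference -0.63), and Dynlrb2, a dynein light chain, differed by -0.70. In the acLDL arrays, which are other samples, 16 of the 17 were lower in KI, with a median of -0.47. Without acLDL, 2 cilia genes were at an unadjusted p under 0.05 once WT array 2 was left out, with a median of -0.17, and 3 once KI array 2 was. With no filter the median over 27 genes was -0.19.

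Airway club and secretory genes were lower for 12 of 14 (median -0.33). The median was -0.16 without KI array 1 and -0.15 over the 12 genes above noise on all 4 arrays. Bpifb1 and Muc5b, secreted by airway epithelium, differed by -1.45 and -1.29 with SEs of 1.24 and 1.17, so these differences were within the spread between arrays. Scgb1a1, the defining club cell secretoglobin, differed by -0.17.

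Genes of the Toll-like and IL-1 receptor pathway, in which IRAK4 acts, differed little. Of 44 genes, 41 had a probe and 28 were measured, and 12 were above noise on none of the 4 arrays, among them Tlr1, Tlr3, Tlr9 and Tirap. There were 7 higher and 21 lower genes, with a median of -0.10, and at an unadjusted p under 0.05 there were 2 higher (7.14%, against 6.2% of all genes) and 3 lower (10.7%, against 8.86%), shares near those of all genes. Of the 28, 12 were non-overlapping in the lower direction (42.9%, against 26.7% of all genes). The median was -0.16 without KI array 1, -0.15 without WT array 2 and -0.06 over the 24 genes above noise on all 4 arrays. The count of 5 was 2 without WT array 1, 3 without WT array 2 and 3 without KI array 2. None passed after adjustment.

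Among the receptors, Tlr2, which senses bacterial lipoproteins, read 8.70 and 8.80 in KI, against 9.35 and 9.14 in WT (difference -0.49, SE 0.13, limma adjusted p = 0.187). The groups did not overlap, but Tlr2 was picked for a small p in the list, which favours such a separation. Il1r1, the IL-1 receptor, read 6.69 and 6.54 in KI and was above noise on neither WT array, so it was at least 1.21-fold higher in KI (limma adjusted p = 0.221). It was measured only because of its KI values, and it is 1 of the 2 higher genes counted above at an unadjusted p under 0.05. Tlr4, the endotoxin receptor, differed by 0.08 and its co-receptor Cd14 by 0.03.

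Among adaptors and kinases, Irak2, a substrate of IRAK4, read 8.89 and 9.01 in KI, against 8.42 and 8.56 in WT (difference 0.46, SE 0.15, limma adjusted p = 0.222). Tab2, which joins TRAF6 to TAK1, read 10.10 and 9.999 in KI, against 10.55 and 10.38 in WT (difference -0.42). Both were non-overlapping. Myd88, Traf6 and Map3k7, which encodes TAK1, differed by -0.04, -0.15 and 0.04. All 4 measured inhibitors were on the lower side by their brightest probes, with a median of -0.13, though Tollip, which is 1 of them, was at -0.30 by its brighter probe and at 0.36 by its other probe.

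Downstream of the pathway, the NF-kB and MAP kinase relay held 10 higher and 10 lower of 20 genes. Of the 12 subunits 9 were higher, and of the 8 inhibitors 7 were lower. At an unadjusted p under 0.05 there were 4 higher (20%, against 6.2% of all genes) and 1 lower (5%, against 8.86%). Non-overlapping were 7 in the higher direction (35%, against 23.4% of all genes) and 2 in the lower (10%, against 26.7%). No gene of this list passed after adjustment. Inflammatory cytokines, chemokines and mediators held 7 higher and 19 lower of 26, with a median of -0.20, which was 0.04 without WT array 2 and -0.04 without KI array 2. Cxcl13, a B cell chemokine, read 6.76 and 7.29 in KI, against 8.0 and 7.71 in WT (difference -0.83, SE 0.22, limma adjusted p = 0.182). Icam1, an adhesion molecule, went the other way, at 13.20 and 13.08 in KI and 12.72 and 12.65 in WT (difference 0.46). Il6, Tnf, Nos2, Ptgs2 and Ccl2 were among 15 genes above noise on none of the 4 arrays. In the acLDL arrays the median of this list was 0.25, with 19 genes higher and 7 lower.

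Interferon-stimulated genes were split evenly, at 8 higher and 8 lower of 16. Bst2, the antiviral tetherin, read 10.93 and 11.22 in KI, against 11.93 and 12.12 in WT (difference -0.95), and Rsad2, viperin, differed by 0.83 with an SE of 0.40. Lysosomal genes were lower for 22 of 29 (median -0.10), with 0 higher and 5 lower at an unadjusted p under 0.05 (17.2%, against 8.86% of all genes). That count was 1 without KI array 1 and 3 without KI array 2, where the median was -0.16. Ctsk, a cathepsin of osteoclasts and macrophages, read 9.01 and 9.20 in KI, against 9.62 and 10.15 in WT (difference -0.78, SE 0.18, limma adjusted p = 0.178). T, B and NK cell markers were lower for 16 of 19 (median -0.16, and -0.25 without WT array 1). Macrophage markers were lower for 7 of 12, with a median of -0.16 that was 0.0008 without KI array 1 and -0.0035 without WT array 1. Among macrophage markers Ctss, cathepsin S, and Aif1 differed by -0.63 and -0.45, while Lyz2, lysozyme, differed by 0.21.

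**Figure D4:**
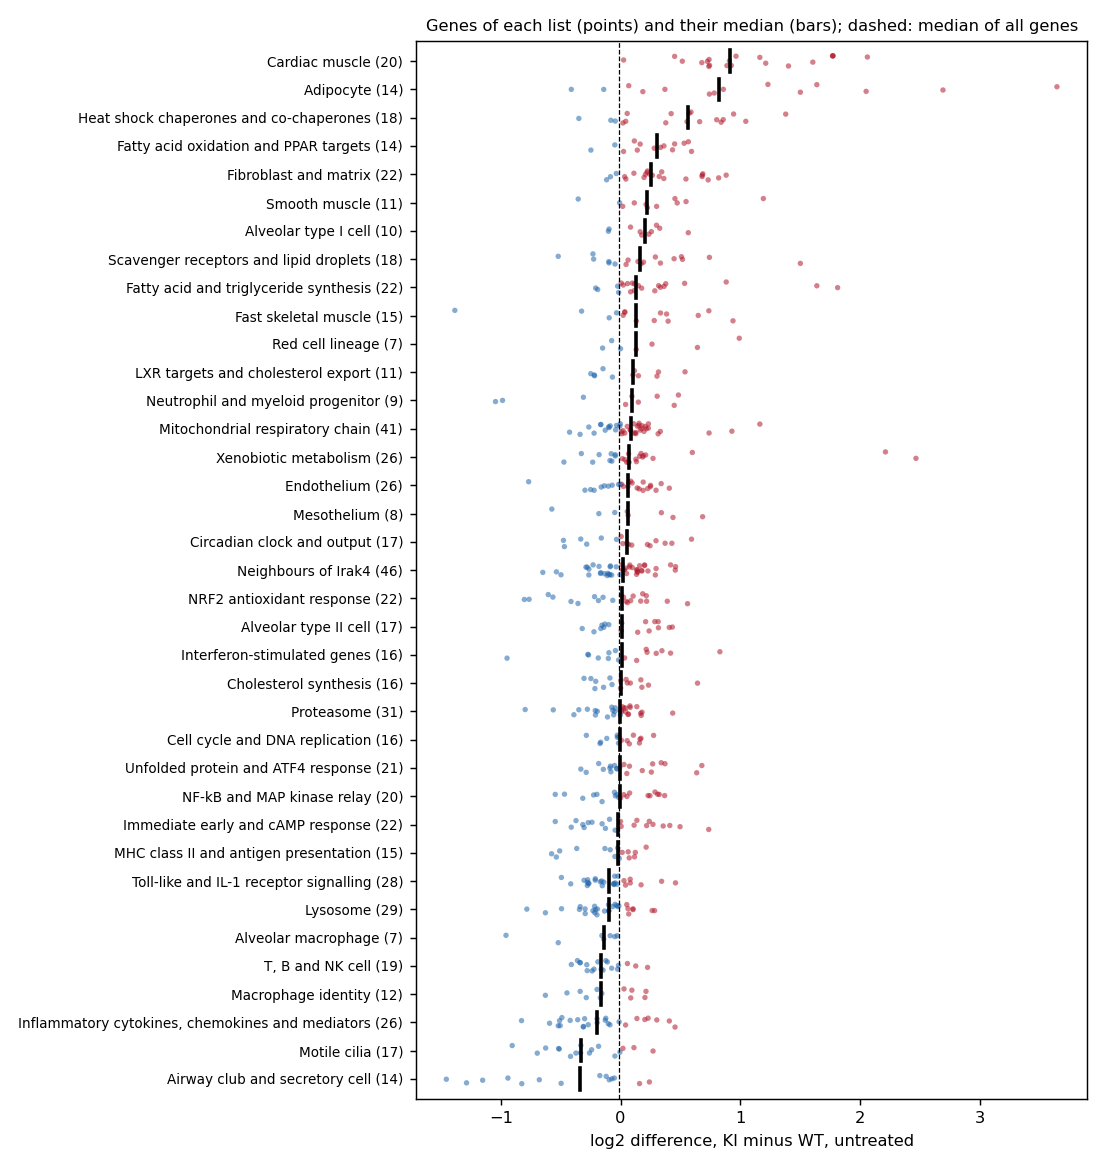
Log2 difference, KI minus WT, without acLDL for the measured genes of each list (points, red above 0 and blue below), with the list's median as a black bar and the number of genes in brackets. The dashed line is the median of all genes, -0.01. Cardiac muscle (0.92), adipocyte (0.82) and heat shock (0.56) lists have the highest medians, and the airway and motile cilia lists (-0.33 each) the lowest.

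Genes that lie next to Irak4 on chromosome 15 were examined because a knock-in carries flanking DNA of the cells it was made in. Of the 50 genes on each side, 46 were measured, of which 25 were higher and 21 lower (median 0.02). At an unadjusted p under 0.05 there were 4 higher (8.7%) and 4 lower (8.7%), against 6.2% and 8.86% of all genes. The count in either direction was 5 without WT array 1, 5 without WT array 2 and 2 without KI array 2, where the median was 0.05, and the median was -0.01 without KI array 1.

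The differences without acLDL were set beside those in the acLDL arrays, which share no array with them. Of the 1810 probes with an unadjusted p under 0.05 without acLDL, 1493 (82.5%) had the same sign with acLDL, against 65.1% of all probes. Across the 11275 probes the differences correlated at r = 0.4069, a description over probes, which are not independent. In the acLDL arrays 12 probes were higher (0.106%) and 5 lower (0.0443%) at a limma adjusted p under 0.05, 0.151% of those tested in all.

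**Figure D5:**
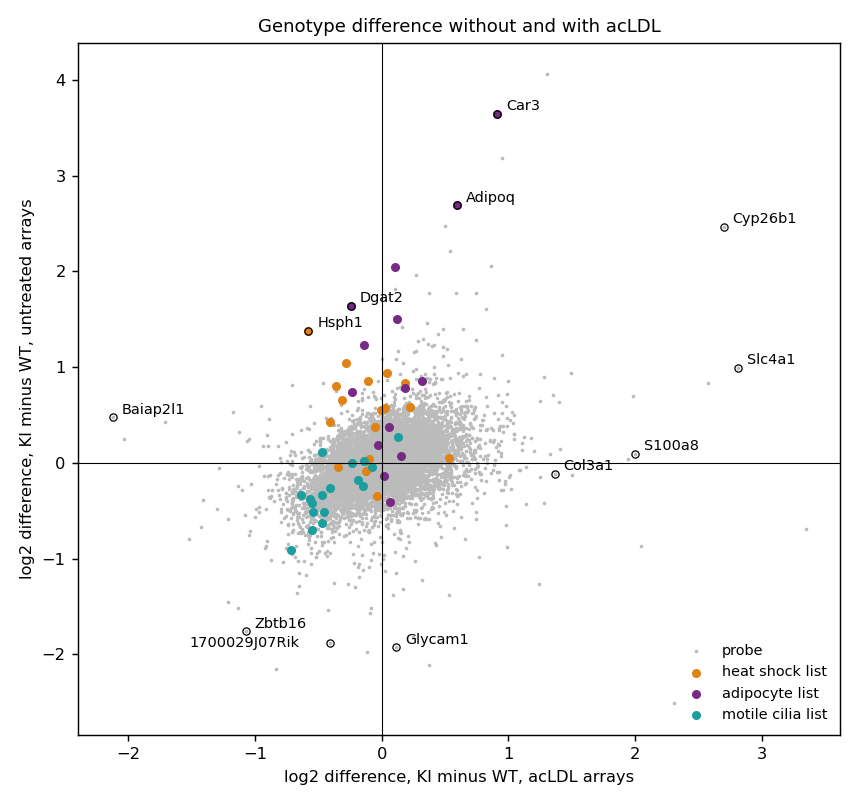
Each point is a probe, with the log2 difference, KI minus WT, in the acLDL arrays on the horizontal axis and in the untreated arrays on the vertical axis. Motile cilia genes lie mostly below 0 on both axes, heat shock genes lie mostly above 0 in the untreated arrays (15 of 18) and mostly below 0 in the acLDL arrays (13 of 18), and Baiap2l1, S100a8 and Col3a1 differ mainly in the acLDL arrays.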

How the data were processed

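The authors' deposited table of intensity values for 8 arrays was used. BeadStudio is named, without a version, in the submitters' processing notes. From the values themselves, the deposited intensity columns are on a linear scale, background-subtracted (29.1% to 29.3% of values lie below 0) and share 1 distribution (sorted columns differ by at most 1.4), as after quantile normalization. A further 16 columns of a second table carry names that match no sample label and were not used.

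Noise was set at the root mean square of all values under 0, 12.2, and a probe was above noise past 3 times that, 36.7. Values were corrected with normexp (offset 16) and put on the log2 scale with no further normalization. All 8 arrays entered 1 limma fit (limma 3.58.1, R 4.3.3) with 4 group means, and p-values were adjusted over 11275 probes at a threshold of 0.05. The fit was tested on simulated data, in 5 sets with 200 of 11275 probes changed. It recovered 39.6% of 1.5-fold and 90.4% of 2-fold changes, with 9.2 other calls per set. The sets also held 4-fold and 8-fold changes, and the Benjamini-Hochberg limit depends on how many probes change and how strongly. In the arrays themselves 1 probe was called, so these shares do not say how many 2-fold differences would be found there. The simulated noise was independent between probes, so it left out shifts that many genes of 1 array share. The small number of arrays limits the precision. Probe genes came from a platform annotation joined by probe ID: 20984 probes had 1 symbol, 1 had several and 3628 had none. Where a gene had several probes, its brightest was used in the lists. Replicate numbers were not taken to pair the samples: same-numbered arrays deviated together with r from -0.3109 (KI and WT without acLDL) to 0.2865 (KI and WT with acLDL) over the 6 pairs of groups.

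Genes were named by rule: every called probe, the 15 highest and 15 lowest that were above noise on 4 arrays, non-overlapping and at an unadjusted p under 0.05, the 4 members of smallest p in a list (8 for the receptor and NF-kB lists), and up to 6 above noise in 1 genotype alone. Other list members were named in addition, after their values were seen. Some show a list's exceptions and some, such as Hspb1, Col1a1 and Muc5b, follow its direction. Not every gene picked by the rule is described. The comparison and the lists were chosen with earlier results of these data known.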

Additional observations from a re-analysis of the deposited data

Results flagged for a closer look

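For 3 genes the genotype difference without acLDL departed from that with acLDL, by limma's test of the difference itself over 11275 probes. Baiap2l1, a membrane adaptor, differed by 0.47 without acLDL and by -2.12 with it, a gap of 2.59 (SE 0.16, adjusted p = 0.0025). S100a8, a calprotectin subunit, differed by 0.10 without acLDL and by 2.00 with it, a gap of -1.90 (SE 0.17, adjusted p = 0.0233). Col3a1, a fibrillar collagen, differed by -0.12 without acLDL and by 1.36 with it, a gap of -1.48 (SE 0.15, adjusted p = 0.0398). None of the 3 passed the test without acLDL.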

How the results depend on the processing

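The number of called probes rests on few arrays. For the untreated comparison 1 probe was called, and for the difference between the untreated and the acLDL genotype effect 3. Without background correction these counts were 0 and 1, with no filter 0 and 1, and with the 4 untreated arrays alone 0 in the untreated comparison. The replicate block gave 0 and 1 (1700029J07Rik -1.88, adjusted p = 0.0988), and so did a replicate block with the untreated KI numbers crossed, added after seeing the data (0 and 1). The labels share only numbers, so neither block stands for a pairing of samples. Leaving out 1 array at a time gave 0 to 4 and 1 to 3. The 4 came without untreated KI array 1, with Dnajb1, Hspd1 and Rptn higher and 1700029J07Rik lower, and without untreated WT array 2 the called gene was Glycam1, which was not above noise in KI (adjusted p = 0.0192). The other settings, which changed the offset, scaling, filter, probe choice and variance trend, kept 1700029J07Rik as the called gene. Over 180 named probes, 5 reversed when 1 array was left out: Pvalb ranged over -4.15 to 1.38 (0.01 without untreated KI array 1), Pgam2 over -0.25 to 1.55, Ckm over -0.44 to 1.92 (-0.32 without untreated WT array 2), Mrc1 over -0.31 to 0.0029 and Pparg over -0.32 to 0.040. None reversed under the other 12 settings. Those that changed only the filter, probe choice, variance trend, block or set of arrays fitted leave a probe's difference of group means as it is. In them a reversal could not occur, so only the settings that changed the values themselves could show one. The cause of the changes in the counts and of the reversals was not tested. Of 740 list medians recomputed, 22 moved by more than their spread and 42 changed sign. A slide block was not run, since no slides are named.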

Other observations

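The largest difference of any probe belonged to ILMN_1230957, which has no gene symbol in the annotation and was chosen after its values were seen. It read 12.17 and 13.19 on the KI arrays, against 8.86 and 8.38 on the WT arrays (difference 4.06, SE 0.79, limma adjusted p = 0.168). With acLDL it read 11.33 and 12.12 in KI, against 9.01 and 11.84 in WT, so the groups overlapped there.

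Psmd13, a proteasome subunit, had 2 probes that differed in opposite directions, at -0.56 and 0.37, and both repeated their sign with acLDL, at -0.43 and 0.41.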
